A study of Mus musculus with 6 samples.

Results

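Interferon response and MHC class I genes were followed in primary aortic endothelial cell cultures of mice that carry PPARG V290M, a dominant negative form of human PPAR gamma, and of non-transgenic mice. The 42 genes were taken from a list of interferon-stimulated genes, their regulators and the MHC class I pathway, and each was read by the probe set of its symbol with the highest mean level over the 6 arrays. Of the 42, 40 had a probe set annotated with that gene alone, among 18193 such genes on the array. Isg15 is read only by probe sets annotated with several genes and Ifi44 by none in the annotation used, so neither has a value. The mean of 36 members reached the level filter, the median of all probe sets, and these 36 are among the 11208 genes tested. Oasl1, Mx1, Mx2 and Ccl5 lay under it.

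The 2 groups were transgenic mice, whose transgene is driven by the endothelial promoter of vascular endothelial cadherin (CDH5), and non-transgenic control mice. Both groups are labelled as strain C57, and no cell received a treatment. Each group's 10 mice gave 5 separate cultures, every culture pooling 2 mice, and RNA of 3 cultures per group was hybridised to Affymetrix GeneChip Mouse Genome 430 2.0 arrays, so n = 3 cultures per group. The ages of the mice are not in the labels, and how much of the interfering receptor the cells made was not read here.

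Interferons are secreted when cells sense foreign nucleic acid, and they act on receptors that almost every cell carries. Type I interferon activates a complex that holds STAT2 and IRF9 and binds a DNA element called the ISRE in front of antiviral genes. Interferon gamma acts through a DNA element called GAS and, through IRF1, raises the genes that cut peptides, carry them into the endoplasmic reticulum and load them on MHC class I, by which endothelium shows its contents to cytotoxic T cells. PPAR gamma is a nuclear receptor known for lipid genes and also for restraining inflammatory gene expression.

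Levels below are log2(signal + 16), and differences are transgenic minus non-transgenic on that scale, where the added 16 shrinks changes of dim genes. The test was limma's, with a Benjamini-Hochberg adjustment over all 11208 genes at 0.05, and its precision is limited by the number of arrays and by the spread between cultures. Transgenic replicate 3 resembled the control arrays more than its own group. Over the tested genes its rank correlation averaged 0.972 with the non-transgenic arrays, against 0.927 with transgenic replicate 1 and 0.887 with transgenic replicate 2. The Gapdh control probes gave a 3'/5' ratio of 1.33 ± 0.12 in the transgenic and 1.59 ± 0.11 in the non-transgenic arrays (SD, n = 3 each, two-sided exact permutation p = 0.1, which no design of 3 against 3 can go below). Of 15 endothelial markers, 6 had a mean above the filter, and Cdh5, Pecam1, Nos3, Tie1, Vwf, Esam, Cldn5 and Erg lay under it on every array, whereas all 8 fibroblast markers had a mean above it.

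No member passed the test with all 6 arrays, and none of the other genes did (0% of 11208 in either direction). An unadjusted p under 0.05 was reached by Ifit2 and B2m, both lower, which is 5.56% of the 36 members against 5.02% of all tested genes, and by no member that was higher, against 6.47% of all tested genes. A negative difference was found for 29 of the 36 members, against 52.5% of all tested genes, and the median difference was -0.25 for the members and -0.02 for all tested genes. This median moved with single cultures: leaving out transgenic replicate 3 gave -0.47 and leaving out transgenic replicate 2 gave -0.04, while leaving out non-transgenic replicate 1 gave -0.09 and non-transgenic replicate 3 gave -0.38. All 3 transgenic cultures lay below every non-transgenic one for Ifit2, B2m and Psmb9, 8.33% of the members against 6.72% of all tested genes, and for no member did they all lie above, against 9.39%.

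The members were not shifted evenly across cultures. Relative to the non-transgenic mean of each gene, the median member lay at -0.25, -0.75 and 0.17 in transgenic replicates 1, 2 and 3 and at 0.36, -0.04 and -0.24 in non-transgenic replicates 1, 2 and 3. The same medians over all tested genes lay between -0.08 and 0.09. Transgenic replicate 2 was the lowest of the 6 arrays for 25 of 36 members (69.4%), against 31.5% of all tested genes. Transgenic replicate 3 lay within or above the non-transgenic range for 32 of 36 (88.9%, against 77.7%). It was the highest transgenic culture for 30 of 36 (83.3%, against 47.2%), and non-transgenic replicate 1 the highest non-transgenic culture for 27 of 36 (75%, against 43.2%).

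**Figure D1:**
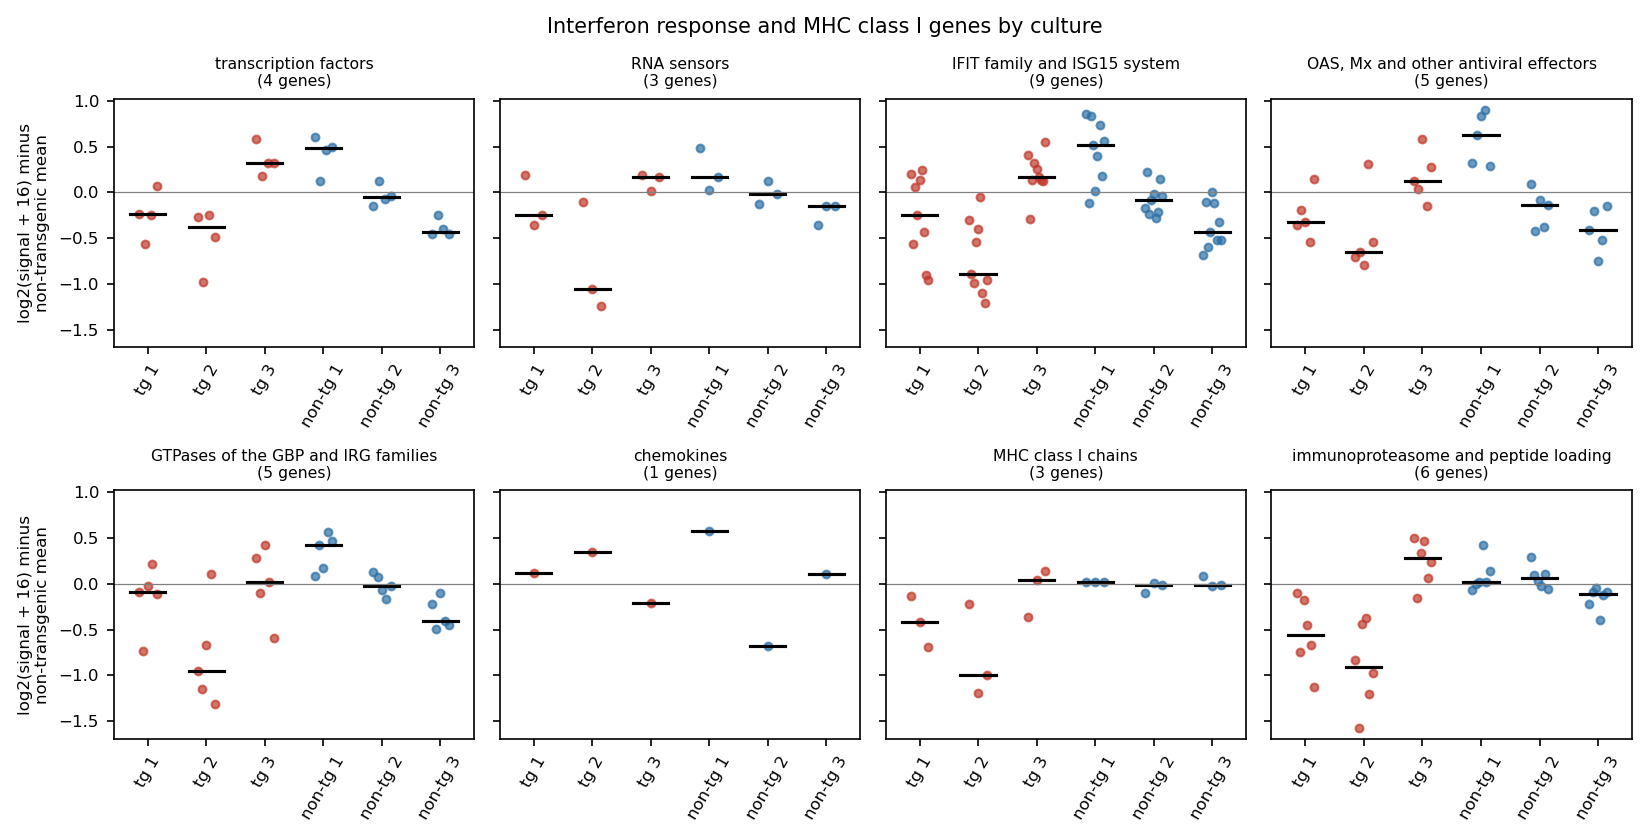
Each point is 1 member above the level filter in 1 culture, as log2(signal + 16) minus the gene's non-transgenic mean, in 8 panels by role, with a bar at the median of the panel's genes. In the MHC class I and immunoproteasome panels the non-transgenic medians lie between -0.11 and 0.06 and transgenic replicates 1 and 2 lie below them, while in the IFIT panel non-transgenic replicate 1 lies at 0.51.

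The MHC class I pathway, 3 chains and 6 genes of peptide supply, had negative differences in 9 of 9 genes, against 52.5% of all tested genes. Its median difference was -0.52, against -0.02 for all tested genes. Its median level relative to the non-transgenic mean was -0.45, -0.98 and 0.14 in transgenic replicates 1, 2 and 3 and between -0.08 and 0.02 in the 3 non-transgenic cultures. With transgenic replicate 3 left out, which leaves 2 transgenic cultures and a spread pooled over both groups, 5 of the 9 passed the test, all lower. They were H2-K1, H2-D1, Tapbp, Tap2 and Psmb9. The array left out is the transgenic one most like the non-transgenic arrays, so these calls are a description of the remaining 5 arrays and no independent evidence of a difference. Leaving out any of the other 5 arrays called 0 genes and 0 members. Over all 36 members 6 passed in that fit, the sixth being Parp14, all lower (16.7%), against 7.83% of all tested genes called lower and 6.88% called higher. The sign was negative for 32 of the 36 in that fit, against 55.1% of all tested genes. A fit with estimated array weights called 11 members lower (30.6%, against 26.3% of all tested genes) and Xaf1 higher (2.78%, against 22.8%). That fit leaned mostly on transgenic replicate 1 (weight 5.24) and non-transgenic replicate 2 (weight 4.65).

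H2-D1, a classical class I heavy chain, was at 12.97, 12.67 and 13.81 in the transgenic cultures, against 13.69, 13.65 and 13.66 in the non-transgenic ones. The 3 non-transgenic values lay within 0.04 of each other, transgenic replicates 1 and 2 lay below all of them and replicate 3 above all of them. The difference was -0.52 ± 0.27 (SE, n = 3 per group, limma adjusted p = 0.462), and without transgenic replicate 3 it was -0.84 ± 0.13 (limma adjusted p = 0.00896), a level 1.79-fold lower. It shrank to -0.28 without transgenic replicate 2 (limma adjusted p = 0.776) and to -0.10 with all H2-D1 probe sets averaged (limma adjusted p = 0.867). That average includes probe sets under the level filter, the dimmest with a mean of 4.81. H2-K1, the other classical heavy chain of this haplotype, was at 13.20, 12.42 and 13.66 in the transgenic cultures, against 13.63, 13.62 and 13.59 in the non-transgenic ones. As for H2-D1, transgenic replicate 2 lay lowest, replicate 1 next and replicate 3 above every non-transgenic culture. Its difference was -0.52 ± 0.28 (SE, limma adjusted p = 0.477), and -0.80 ± 0.21 without transgenic replicate 3 (limma adjusted p = 0.043), but -0.18 without transgenic replicate 2 (limma adjusted p = 0.783).

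Both heavy chain genes have close relatives, and the probe sets used carry the suffix that marks probes shared with other sequences, so these values may mix several class I genes. Another 7 probe sets of H2-K1 and H2-D1 lay above the filter, and all 7 had negative differences, from -1.28 to -0.01. B2m, the light chain that all class I molecules share, differed by less than either heavy chain and was at 14.96, 14.88 and 14.74 in the transgenic cultures, against 15.12, 14.996 and 15.18 in the non-transgenic ones. For B2m it was transgenic replicate 3 that lay lowest, and the groups did not overlap. The difference was -0.24 ± 0.10 (SE, limma adjusted p = 0.428), and the second B2m probe set gave -0.26 ± 0.09.

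The bases in front of these genes are shown because both heavy chains placed the 3 transgenic cultures in the same order around the non-transgenic ones. They are from RefSeq's table on GRCm38.p6, 5′ to 3′ on the gene's strand, and end 1 base before the annotated start. Capitals mark the longest run that both windows share, which is 46 bases long. It begins at the first base of the H2-D1 window, so its length is cut by the window. Both windows share further bases after it. The order of the cultures was not particular to this pair. Transgenic replicate 2 was lowest for 25 of 36 members and replicate 3 the highest transgenic culture for 30 of 36. The part of the shared bases in the levels was not tested.
H2-D1, chr17:35262894-35263093, plus strand: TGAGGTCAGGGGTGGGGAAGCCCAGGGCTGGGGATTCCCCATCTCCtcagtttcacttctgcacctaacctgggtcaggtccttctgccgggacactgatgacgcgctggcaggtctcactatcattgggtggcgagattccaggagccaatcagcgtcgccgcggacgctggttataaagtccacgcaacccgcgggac
H2-K1, chr17:34000348-34000547, minus strand: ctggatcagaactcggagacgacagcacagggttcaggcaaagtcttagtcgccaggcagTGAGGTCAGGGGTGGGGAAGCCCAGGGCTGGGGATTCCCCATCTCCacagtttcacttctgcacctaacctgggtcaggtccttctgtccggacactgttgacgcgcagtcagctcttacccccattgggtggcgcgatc

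Tapbp (tapasin), which bridges class I molecules to the peptide transporter, was at 12.71, 12.86 and 14.08 in the transgenic cultures, against 13.98, 13.78 and 13.75 in the non-transgenic ones. Transgenic replicates 1 and 2 lay below every non-transgenic culture and replicate 3 above all of them. Its difference was -0.62 ± 0.33 (SE, limma adjusted p = 0.473), and -1.05 ± 0.13 without transgenic replicate 3 (limma adjusted p = 0.00489), which is 2.07-fold lower and has the smallest p of the members in that fit. Without transgenic replicate 1 it was -0.37 (limma adjusted p = 0.765). Tap2, one chain of the transporter, was at 9.30, 8.77 and 10.04 in the transgenic cultures, against 9.99, 10.08 and 9.85 in the non-transgenic ones. Its difference was -0.60 ± 0.35 (SE, limma adjusted p = 0.501), and -0.94 ± 0.26 without transgenic replicate 3 (limma adjusted p = 0.0477), but -0.30 without transgenic replicate 2 (limma adjusted p = 0.809).

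Psmb9, an interferon-induced catalytic subunit of the immunoproteasome, was at 9.68, 8.85 and 10.26 in the transgenic cultures, against 10.41, 10.52 and 10.33 in the non-transgenic ones. All 3 transgenic cultures lay below the non-transgenic ones, replicate 3 narrowly, and the difference of -0.82 ± 0.36 (SE, limma adjusted p = 0.437) was the most negative of the 36 members. Without transgenic replicate 3 it was -1.16 ± 0.29 (limma adjusted p = 0.0349), which is 2.23-fold lower, and without transgenic replicate 2 it was -0.45 (limma adjusted p = 0.729). Its partners Psmb8 and Psmb10 differed by -0.14 ± 0.36 and -0.09 ± 0.21, and Psmb8 was at 10.52, 9.78 and 11.12 in the transgenic cultures, against 10.55, 10.91 and 10.39 in the non-transgenic ones. Tap1, the other transporter chain, differed by -0.12 ± 0.34 and was at 9.86, 9.93 and 10.78 in the transgenic cultures, against 10.74, 10.28 and 9.91 in the non-transgenic ones. The Psmb8 difference turned to 0.42 when all its probe sets were averaged. For Psmb8, Psmb10 and Tap1 transgenic replicate 3 was the highest of the 6 cultures.

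Tap1 and Psmb9 face away from each other, and the stretch between their annotated starts, shown on the plus strand, which is that of Tap1, serves as the upstream sequence of both. It held neither of the 2 motifs searched below.
Tap1 and Psmb9, chr17:34187331-34187555, plus strand: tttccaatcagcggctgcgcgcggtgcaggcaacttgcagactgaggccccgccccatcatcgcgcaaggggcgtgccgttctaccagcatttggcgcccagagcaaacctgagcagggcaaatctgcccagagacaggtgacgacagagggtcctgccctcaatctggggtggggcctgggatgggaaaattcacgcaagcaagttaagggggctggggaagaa

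**Figure D2:**
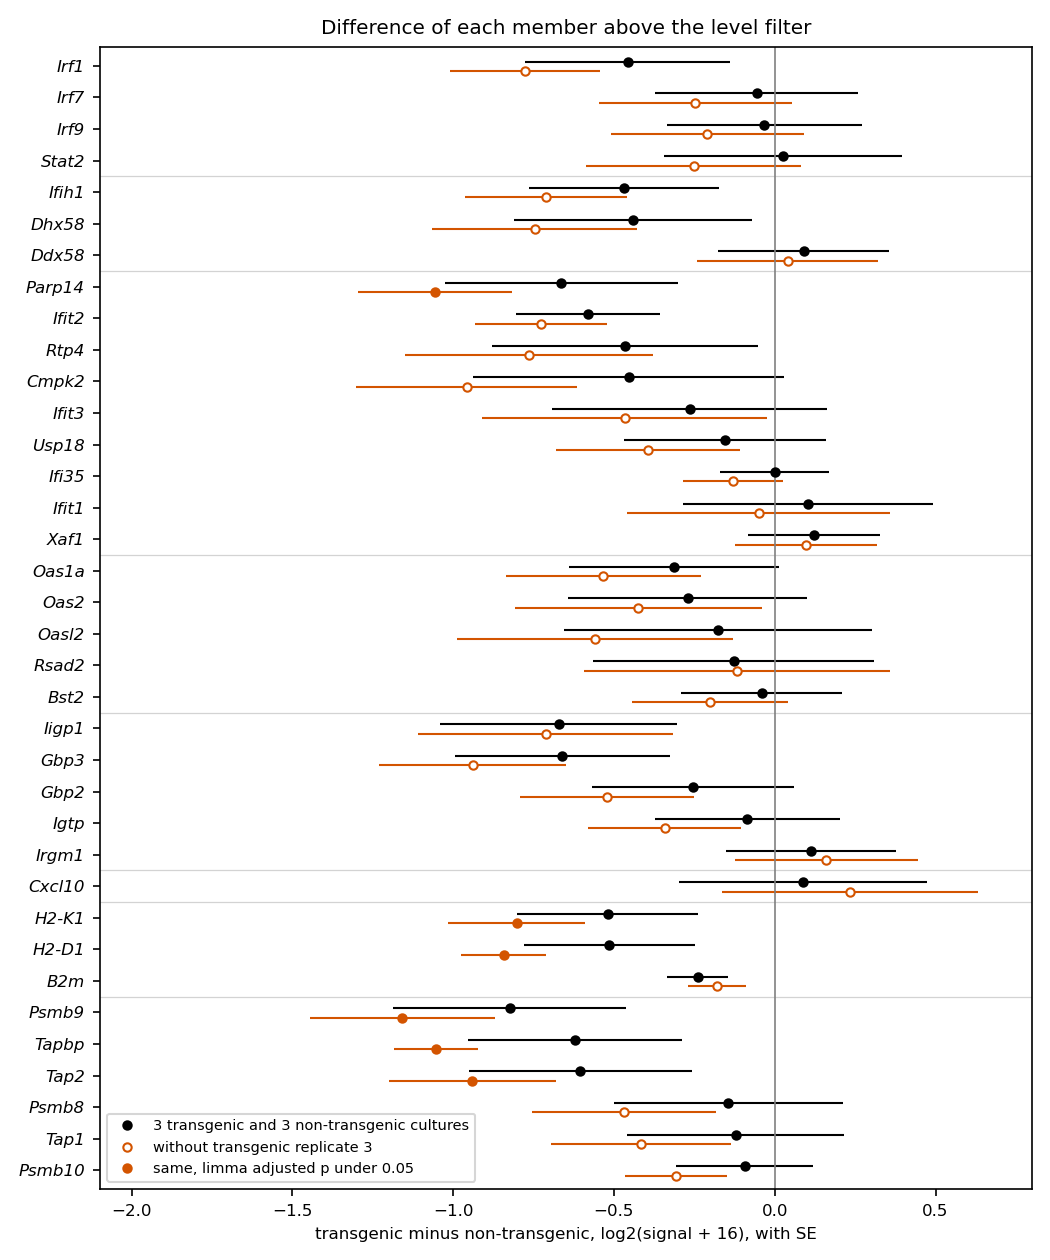
Difference between transgenic and non-transgenic cultures on the log2(signal + 16) scale for the 36 members above the filter, in the order of their roles, with limma's SE. Black points use all 6 arrays and orange points leave out transgenic replicate 3, filled where the adjusted p was under 0.05, as for 6 members, all lower.

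The signal of markers of other cell types also varied from culture to culture. Fewer cells of a type and less RNA per cell cannot be told apart in such bulk samples. The summed signal of the 8 fibroblast markers was 94961 to 111325 in the transgenic cultures and 112351 to 122445 in the non-transgenic ones, with transgenic replicate 2 lowest and all 8 above the filter on each array except that one, which had 7. That of 4 adipocyte markers was 391 to 6447 in the transgenic and 5479 to 31337 in the non-transgenic cultures, and Lep was under the filter on every array. The 15 leukocyte and macrophage markers summed to 4853 to 22240 in the transgenic and 3279 to 4934 in the non-transgenic cultures. Transgenic replicate 2 had 10 of them above the filter, against 4 or 5 on every other array, while Ptprc, Adgre1, C1qa, C1qc and Itgam were under it everywhere. The 8 lymphocyte and plasmacytoid dendritic cell markers were under the filter on all 6 arrays. Endothelial markers summed to 13264 to 19282 in the transgenic and 13030 to 17375 in the non-transgenic cultures, and smooth muscle markers to 16382 to 30464 and 14086 to 24287. The sums mix genes that differed in opposite directions, none of which passed the test. Among fibroblast markers Dcn differed by -1.44 and Lum by -1.53, but Thy1 by 0.90. Among endothelial markers Ramp2 differed by -1.74 and Flt1 by 1.01. In the leukocyte sum, 4 markers had a mean above the filter. Cd53 was at 12.65, 13.29 and 8.43 in the transgenic cultures, against 10.41, 8.60 and 7.74 in the non-transgenic ones. Csf1r was at 11.03, 10.49 and 10.59, against 8.94, 9.06 and 8.61, so all 3 transgenic cultures lay above. Lyz2 differed by 1.15 and Cd14 by -0.17. The part of these markers in the class I values was not tested.

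Among the 27 other members above the filter many spread over the non-transgenic cultures themselves, but Ifi35, Ifih1, Igtp, Dhx58, Ifit2 and Gbp2 had a range there under the median of all tested genes. The difference between these 27 and the class I pathway was not tested. Their median range over the 3 non-transgenic cultures was 0.92, against 0.19 for the 9 class I pathway genes and 0.35 for all tested genes. Over the 3 transgenic cultures the median range was 0.85, 1.24 and 0.62 for the same sets. In the class I pathway, Tap1 and Psmb8 had non-transgenic ranges of 0.82 and 0.52, above the median of all tested genes. The range was wider in the transgenic than in the non-transgenic group for 9 of 9 class I pathway genes and for 13 of the 27 others, against 74.1% of all tested genes. A wider transgenic range was not particular to the class I pathway. Among the tested genes of the lists below, it was found for 16 of 17 ligands, receptors and signalling genes. It was also found for 29 of 34 further interferon-stimulated genes and 8 of 10 further class I and antigen processing genes. It was found for 0 of 2 class II genes and 0 of 3 constitutive proteasome subunits. Non-transgenic replicate 1 was the highest non-transgenic culture for 23 of the 27 other members, against 43.2% of all tested genes. Differences were negative for 20 of the 27, against 52.5% of all tested genes, with a median of -0.18, and none passed the test with 6 arrays.

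**Figure D3:**
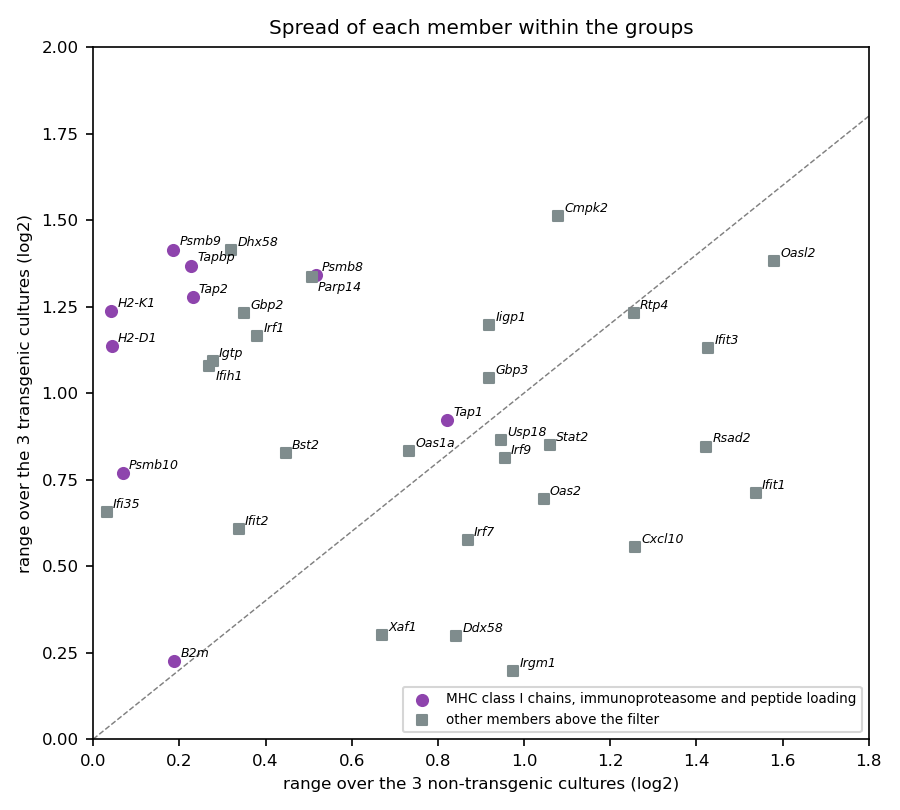
Range of log2(signal + 16) over the 3 transgenic cultures against the range over the 3 non-transgenic cultures for each of the 36 members above the filter, with a dashed line where both are equal. H2-K1 and H2-D1 lie near the left edge with a non-transgenic range of 0.04 and transgenic ranges of 1.24 and 1.14, while Ifit1 lies at the right with 0.71 in the transgenic and 1.54 in the non-transgenic group.

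Of the transcription factors, Stat2 and Irf9, the partners of the type I interferon complex, differed by 0.03 and -0.03. Irf7, which amplifies type I interferon production, differed by -0.06. Irf1, the factor downstream of interferon gamma, was at 10.46, 10.04 and 11.21 in the transgenic cultures, against 11.15, 11.15 and 10.77 in the non-transgenic ones. Transgenic replicates 1 and 2 lay below all non-transgenic cultures and replicate 3 above them, as for the class I heavy chains, and the difference was -0.46 ± 0.32 (SE, limma adjusted p = 0.561).

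The cytosolic RNA sensors had differences of both signs. Ifih1 (MDA5) was at 10.74, 10.04 and 11.12 in the transgenic cultures, against 11.13, 11.22 and 10.95 in the non-transgenic ones, a difference of -0.47 ± 0.30 (SE, limma adjusted p = 0.529). Dhx58 (LGP2), a regulator of the other two, differed by -0.44 ± 0.37 and Ddx58 (RIG-I) by 0.09 ± 0.27. Transgenic replicate 2 was the lowest of the 6 arrays for Ifih1 and Dhx58, and not for Ddx58.

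Ifit1, which binds viral RNA that lacks the host's cap methylation, was at 11.996, 11.50 and 12.21 in the transgenic cultures, against 12.65, 11.62 and 11.11 in the non-transgenic ones. The highest and the lowest of the 6 values were both non-transgenic, and the difference of 0.10 ± 0.39 (SE, limma adjusted p = 0.923) lay inside that spread. Ifit3, its partner, was at 12.33, 11.27 and 12.40 in the transgenic cultures, against 13.10, 12.03 and 11.67 in the non-transgenic ones. It differed by -0.26 ± 0.43 (SE, limma adjusted p = 0.806), with non-transgenic replicate 1 again highest.

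Ifit2, another RNA-binding member of the family, was at 11.03, 10.71 and 11.31 in the transgenic cultures, against 11.48, 11.82 and 11.49 in the non-transgenic ones, and all 3 transgenic cultures lay below every non-transgenic one. The difference of -0.58 ± 0.22 (1.495-fold lower) had the smallest unadjusted p of the members, 0.0325, and a limma adjusted p of 0.428. Without transgenic replicate 3 it was -0.73 ± 0.21 (limma adjusted p = 0.0522).

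The sequences in front of Ifit1 and Ifit3 are shown because both genes had their highest level in non-transgenic replicate 1. That replicate was the highest non-transgenic culture for 27 of 36 members, and the part of these sequences in the levels was not tested. Capitals mark matches to the ISRE core, GAAA and GAAA separated by any 2 bases, here in its reverse orientation with TTTC, and each window ends 1 base before the annotated start in RefSeq's GRCm38.p6 table.
Ifit1, chr19:34640739-34640888, plus strand: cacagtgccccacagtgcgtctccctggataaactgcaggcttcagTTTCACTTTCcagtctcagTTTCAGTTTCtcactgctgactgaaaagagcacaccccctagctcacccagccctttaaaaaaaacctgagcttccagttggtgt
Ifit3, chr19:34583359-34583528, plus strand: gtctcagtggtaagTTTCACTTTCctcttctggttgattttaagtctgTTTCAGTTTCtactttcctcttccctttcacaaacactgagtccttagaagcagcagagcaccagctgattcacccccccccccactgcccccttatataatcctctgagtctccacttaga

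Each of these windows held 2 matches. Of the 42 members, 32 had a promoter in the table, with 37 windows from 250 bases before to 50 bases after a start. The ISRE core, searched on both strands, was found in 15 of the 37 (40.5%), against 3.44% of all 32851 windows in the table. It was in 14 of 28 windows (50%) of the members outside the class I pathway and in 1 of 9 (11.1%) within it, that of B2m. The GAS core, TTC and GAA separated by any 3 bases, was in 7 of the 37 (18.9%), against 8.3% of all windows, and in the Bst2 promoter it overlapped the ISRE match. No match says only that these letters are not in the window. Igtp and B2m are shown as members of each set with a match in capitals, the first with a GAS core upstream of an ISRE core.
Igtp, chr11:58199436-58199555, plus strand: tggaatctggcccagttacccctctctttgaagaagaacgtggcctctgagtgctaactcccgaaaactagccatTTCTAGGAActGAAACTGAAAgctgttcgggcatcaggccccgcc
B2m, chr2:122147517-122147686, plus strand: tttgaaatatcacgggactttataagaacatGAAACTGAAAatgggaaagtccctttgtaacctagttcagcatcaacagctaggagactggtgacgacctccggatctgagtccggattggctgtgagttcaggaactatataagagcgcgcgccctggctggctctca

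Among the remaining genes listed with the IFIT family, Parp14, an ADP-ribosyltransferase, was at 10.19, 9.88 and 11.22 in the transgenic cultures, against 11.27, 11.24 and 10.77 in the non-transgenic ones. The difference was -0.66 ± 0.36 (SE, limma adjusted p = 0.481) and -1.06 ± 0.24 without transgenic replicate 3 (limma adjusted p = 0.0259), the only member outside the class I pathway that passed in that fit. Without transgenic replicate 2 it was -0.39 (limma adjusted p = 0.784). Its second probe set above the filter differed by -0.85 ± 0.34. Rtp4, an antiviral zinc finger protein, was at 10.68, 10.01 and 11.24 in the transgenic cultures, against 11.85, 10.89 and 10.59 in the non-transgenic ones, a difference of -0.46 ± 0.41. Usp18, the protease that removes ISG15 and dampens receptor signalling, differed by -0.15 ± 0.32. Ifi35 was nearly the same in all non-transgenic cultures, at 14.21, 14.18 and 14.20, and its transgenic levels of 14.34, 13.80 and 14.45 lay on either side of them.

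The 5 tested genes among the oligoadenylate synthetases, Mx proteins and other effectors had differences from -0.31 to -0.04, smaller than the spread between cultures. Oas1a, which makes the oligoadenylate that activates RNase L, was at 9.02, 8.67 and 9.50 in the transgenic cultures, against 9.70, 9.47 and 8.96 in the non-transgenic ones, and differed by -0.31 ± 0.33 (SE, limma adjusted p = 0.698). Oasl2 was at 10.31, 9.84 and 11.22 in the transgenic cultures, against 11.46, 10.55 and 9.88 in the non-transgenic ones. Its difference of -0.18 ± 0.48 was the average of 2 widely spread groups. Rsad2 (viperin), an antiviral enzyme of lipid droplets and the endoplasmic reticulum, was at 8.41, 9.25 and 8.80 in the transgenic cultures, against 9.85, 8.57 and 8.43 in the non-transgenic ones. It differed by -0.13 ± 0.44, and its next probe set by 0.22 ± 0.42. Mx1, Mx2 and Oasl1 lay under the filter, with means of 7.37, 7.02 and 7.14 in the transgenic and 7.66, 7.27 and 6.36 in the non-transgenic cultures.

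**Figure D4:**
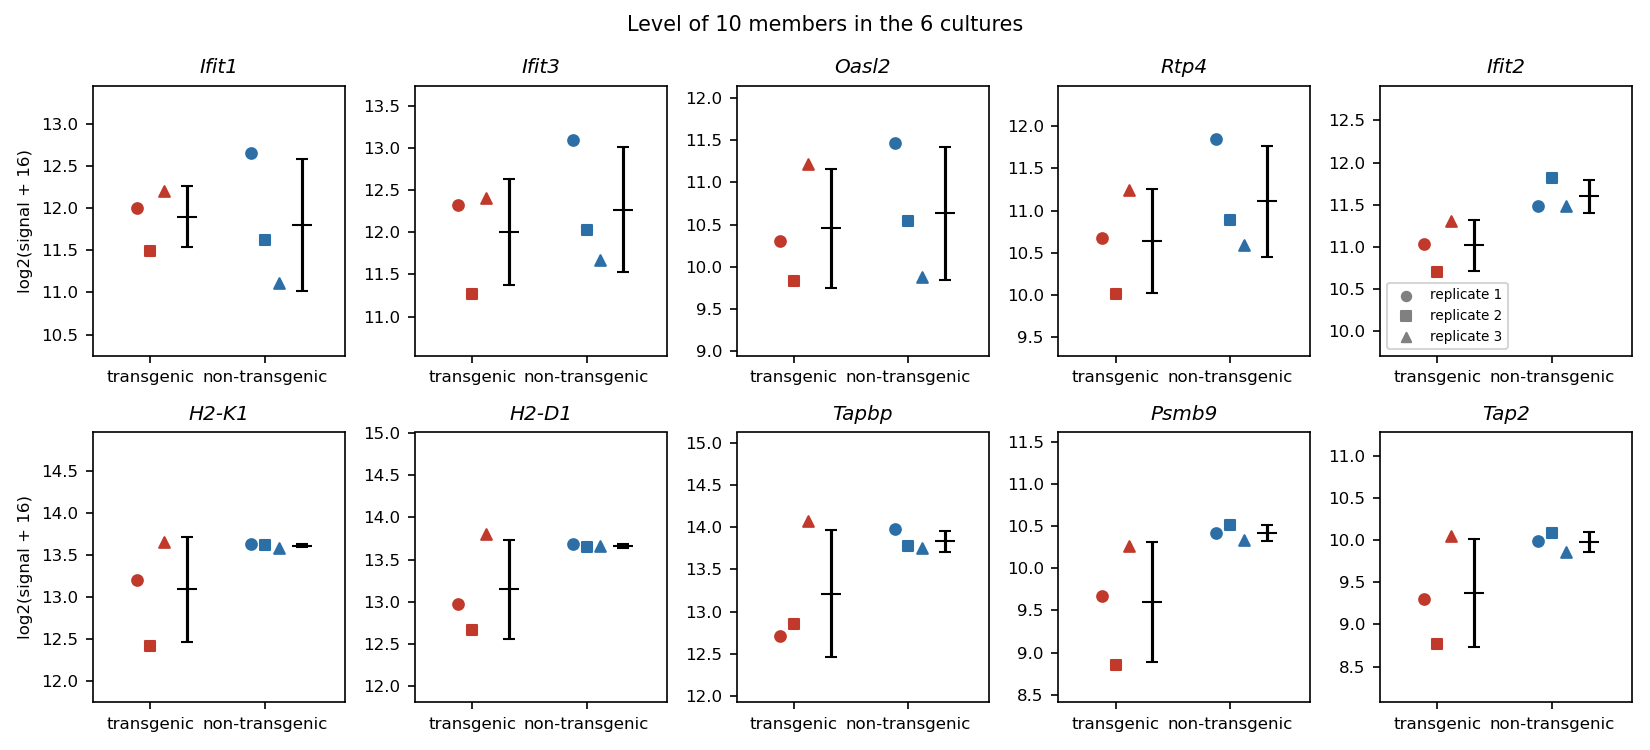
Level of 10 members, as log2(signal + 16), in the 3 transgenic (red) and 3 non-transgenic (blue) cultures, with a marker shape for each replicate number and the mean and SD beside them. The top row holds genes whose non-transgenic cultures spread, except Ifit2, and the bottom row class I pathway genes, whose non-transgenic cultures lie close together with transgenic replicates 1 and 2 below them. Tap1 and Psmb8, class I pathway genes with wider non-transgenic ranges (0.82 and 0.52), are not shown.

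The interferon-induced GTPases, which attack the vacuoles of intracellular pathogens, had differences from -0.67 to 0.11. Iigp1 was at 10.72, 9.52 and 10.24 in the transgenic cultures, against 11.30, 10.81 and 10.38 in the non-transgenic ones. The difference was -0.67 ± 0.37 (SE, limma adjusted p = 0.481), and on its second probe set -0.90 ± 0.28, where all 3 transgenic cultures, at 9.99, 9.64 and 9.30, lay below the non-transgenic ones at 10.88, 10.47 and 10.29. Gbp3 was at 10.90, 10.48 and 11.53 in the transgenic cultures, against 12.05, 11.71 and 11.13 in the non-transgenic ones, a difference of -0.66 ± 0.33 (SE, limma adjusted p = 0.456). Igtp and Irgm1 differed by -0.09 and 0.11.

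The 2 chemokines were dim. Cxcl10, which attracts activated T cells, was at 8.22, 8.45 and 7.89 in the transgenic cultures, against 8.67, 7.41 and 8.21 in the non-transgenic ones, and differed by 0.09 ± 0.38 (SE, limma adjusted p = 0.934). Ccl5, which attracts T cells and monocytes, lay under the filter on average, at 7.48, 6.67 and 7.97 in the transgenic cultures, against 7.25, 5.91 and 6.19 in the non-transgenic ones.

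Upstream of these genes, 17 of 27 listed ligands, receptors and signalling genes were tested, 8 with a positive and 9 with a negative difference, and none passed with 6 arrays. Without transgenic replicate 3, 5 of the 17 passed, 2 of them lower, against 7.83% lower and 6.88% higher of all tested genes. Leaving out any other array called no gene. The interferon beta, alpha and gamma genes listed (Ifnb1, Ifna2, Ifna4 and Ifng) had no level above the filter on any array. Ifngr1, the ligand-binding chain of the interferon gamma receptor, was at 12.03, 11.05 and 12.62 in the transgenic cultures, against 12.74, 12.86 and 12.82 in the non-transgenic ones. All 3 transgenic cultures lay below, by -0.90 ± 0.36 (SE, limma adjusted p = 0.428), and by -1.26 ± 0.27 without transgenic replicate 3 (limma adjusted p = 0.0214). Its partner chain Ifngr2 differed the other way, by 0.47 ± 0.32, and by 0.81 ± 0.22 without transgenic replicate 3 (limma adjusted p = 0.0452).

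The type I receptor chains Ifnar1 and Ifnar2 differed by 0.39 ± 0.23 and -0.12 ± 0.22. Without transgenic replicate 3 they differed by 0.61 ± 0.17 (limma adjusted p = 0.0491) and -0.21 ± 0.22 (limma adjusted p = 0.548). Sting1, the adaptor of cytosolic DNA sensing, was at 12.17, 12.19 and 11.16 in the transgenic cultures, against 11.03, 10.67 and 10.58 in the non-transgenic ones, and all 3 transgenic cultures lay above. The difference was 1.08 ± 0.31 (SE, limma adjusted p = 0.428), and 1.42 ± 0.20 without transgenic replicate 3 (limma adjusted p = 0.00658). Irf2, a repressor at interferon-responsive elements, differed by -0.40 ± 0.19, and by -0.60 ± 0.13 without transgenic replicate 3 (limma adjusted p = 0.024).

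In a list of 41 further interferon-stimulated genes, 34 were tested, and none passed. A negative difference was found for 24 and a positive one for 10, against 52.5% negative among all tested genes, with a median of -0.17. Without transgenic replicate 3, 5 of the 34 passed, 4 of them lower and the other higher, against 7.83% lower and 6.88% higher of all tested genes. The lower ones included Gbp7 (-0.84, limma adjusted p = 0.0258) and Trafd1 (-0.91, limma adjusted p = 0.0201). Gbp7 was at 11.03, 10.91 and 11.37 in the transgenic cultures, against 11.66, 12.03 and 11.74 in the non-transgenic ones, a difference of -0.70 ± 0.21 (SE, limma adjusted p = 0.428) with no overlap. Pml, the scaffold of nuclear bodies, differed by 0.74 ± 0.30 and Trafd1 by -0.61 ± 0.28. Of 17 further class I, antigen processing and proteasome activator genes, 10 were tested and 9 had a negative difference, against 52.5% of all tested genes, with a median of -0.22. Without transgenic replicate 3, 2 of the 10 passed, both lower, against 7.83% of all tested genes called lower. Cd1d1, a class I-like molecule that presents lipids, was at 9.40, 8.67 and 10.10 in the transgenic cultures, against 10.89, 10.42 and 10.12 in the non-transgenic ones, a difference of -1.09 ± 0.40 (SE, limma adjusted p = 0.428). Without transgenic replicate 3 it was -1.44 ± 0.32 (limma adjusted p = 0.025). Calr, the calreticulin chaperone that helps class I molecules fold, differed by -0.18 ± 0.13. Erap1, which trims peptides for class I, differed by -0.89 ± 0.45, and by -1.36 ± 0.33 without transgenic replicate 3 (limma adjusted p = 0.0314).

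The 3 constitutive proteasome subunits that Psmb8, Psmb9 and Psmb10 replace had positive differences, and none passed the test. Psmb5 was at 13.10, 13.23 and 13.11 in the transgenic cultures, against 12.57, 12.81 and 12.95 in the non-transgenic ones, a difference of 0.37 ± 0.14 (SE, limma adjusted p = 0.428) with no overlap. Psmb6, which Psmb9 replaces, differed by 0.14 ± 0.15 and Psmb7 by 0.06 ± 0.12, both within the spread between cultures.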

How the data were processed

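RNA of 6 cultures was amplified and hybridised to 1 array each. The authors deposited linear intensities, 1 for each probe set of an array. MAS5 produced them, per the submitters' processing notes. MAS5 scales each array to a target, and the trimmed mean was near 1500 on each. The median signal still differed, at 183.6, 186.1 and 173 in transgenic replicates 1, 2 and 3, against 220.5, 219.9 and 222.9 in the non-transgenic ones. The intensities ran from 0.1 to 67821.8 over 45101 probe sets, 64 of them controls, and at most 0.142% of values were identical between any pair of arrays. Genes were named from the array annotation, in which 34945 probe sets had 1 gene, 932 several and 9160 none, and 34741 of those with 1 gene matched RefSeq's gene table (GRCm38.p6), which gave current symbols.

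Values were computed as log2(intensity + 16). The probe set of highest mean stood for each gene, which was tested where that mean reached 7.72 (a signal of 194). limma 3.58.1 in R 4.3.3 (lmFit, eBayes with a variance trend) compared the groups two-sided, with Benjamini-Hochberg adjustment. The code was run on simulated data with the same spread for every gene and no deviating array. That run does not show how the test behaves with the unequal spread of these arrays. SE are limma's moderated ones.

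The members and lists were chosen with earlier results of these data known. Values on every array were given for the 10 members with the smallest p, the 3 brightest and at least 1 per role. Psmb8, Psmb10, Tap1, Ifit1, Ifit3, Oasl2, Rtp4, Usp18 and Rsad2 were added after their values were seen. From each pathway list up to 3 genes with the smallest p were named, beside the interferon receptor chains. Alternatives were another pseudocount, other filters, quantile normalization, no variance trend, array weights, the mean of all probe sets, a replicate block and each array left out in turn. Replicates are separate cultures. One gene of the pathway lists is not reported here.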

Additional observations from a re-analysis of the deposited data

How the results depend on the processing

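With limma and all 6 arrays, no gene and no member passed at a pseudocount of 64, with no level filter or one at the 75th percentile, with quantile normalization, without a variance trend or with all probe sets of a gene averaged, and the median member difference was -0.24 to -0.14 in those that changed it. The -0.14 came from quantile normalization, which also moved B2m from -0.24 to -0.13. Estimated array weights called 5504 genes, 2551 of them higher, and 12 members, 11 lower (30.6%, against 26.3% of all tested genes) and Xaf1 higher. The weights were 5.24, 0.349 and 0.177 for transgenic replicates 1, 2 and 3 and 0.553, 4.65 and 1.2 for the non-transgenic ones. The weighted fit thus leaned mostly on transgenic replicate 1 and non-transgenic replicate 2. With the weights the median member difference was -0.19. Signs reversed for Ifit3 (0.21), Bst2 (0.21), Irf9 (0.12), Oas2 (0.076), Igtp (0.0093) and Stat2 (-0.071). Quantile normalization reversed Rsad2 to 0.067, and averaging all probe sets reversed Psmb8 to 0.42, where its dimmer probe set lies under the filter. Averaging also moved H2-D1, some of whose probe sets lie under the filter, to -0.10. The weights moved Iigp1 to -0.14 and B2m to -0.093. With each array left out in turn, 0 to 1649 genes and 0 to 6 members passed, all without transgenic replicate 3, and the median member difference ran from -0.47 to -0.04. In those fits the sign changed for Ifi35 (-0.13 to 0.20), Cxcl10 (-0.25 to 0.37), Ifit1 (-0.24 to 0.53), Ifit3 (-0.56 to 0.15), Oasl2 (-0.56 to 0.24), Psmb8 (-0.47 to 0.20), Psmb10 (-0.31 to 0.078), Tap1 (-0.42 to 0.091), Usp18 (-0.39 to 0.10) and Rsad2 (-0.39 to 0.32). Stat2 also turned, to -0.25 without transgenic replicate 3. Except with the weights and without that replicate, signs were followed for part of the members only. The cause of these sign changes was not tested. The groups share replicate numbers, but same-numbered arrays did not deviate together (correlations of 0.0421, -0.278 and -0.0336), and with the number as a replicate block 0 genes and 0 members passed and the median member difference stayed at -0.25.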

Other observations

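Of the MHC class II genes, which present peptides to helper T cells and are made mainly by leukocytes, the few bright enough to test had positive differences that did not pass the test. Of 9 listed genes 8 had a probe set of their own and 2 were tested. H2-DMa, part of the class II peptide editor, was at 8.25, 8.55 and 8.64 in the transgenic cultures, against 7.86, 7.32 and 7.32 in the non-transgenic ones. It differed by 0.98 ± 0.30 (SE, n = 3 per group, limma adjusted p = 0.428). H2-Ab1, a class II chain, was at 9.08, 8.70 and 8.71 in the transgenic cultures, against 7.74, 7.72 and 8.34 in the non-transgenic ones, and differed by 0.90 ± 0.30 (limma adjusted p = 0.428). For both, all 3 transgenic cultures, replicate 3 included, lay above every non-transgenic one, against 9.39% of all tested genes. The other class II genes, H2-Aa, H2-Eb1, H2-Oa, H2-Ob, Cd74 and the class II regulator Ciita, had means under the level filter. Their transgenic means were lower for H2-Eb1 (5.65 against 5.78 in the non-transgenic cultures), H2-Oa (5.65 against 5.84) and Ciita (6.27 against 6.78). They were higher for H2-Aa (6.49 against 5.28), H2-Ob (5.20 against 4.62) and Cd74 (7.25 against 6.86). The class II means thus did not all lie higher in the transgenic cultures, and those under the filter were not tested. The 15 leukocyte and macrophage markers had 5, 10 and 4 above the filter in the transgenic cultures and 5, 4 and 5 in the non-transgenic ones, and their part in these values was not tested.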
